A study of Mus musculus with 8 samples.

Results

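The genes described here are 9 regulators of chondrocyte hypertrophy, chosen by name from 3 gene families. They are the RUNX transcription factors *Runx1*, *Runx2* and *Runx3* with their DNA-binding partner *Cbfb*, the MEF2 transcription factors *Mef2a*, *Mef2c* and *Mef2d*, and the class IIa histone deacetylases *Hdac5* and *Hdac7*. All 9 are among the 52325 gene identifiers listed for each library, and all 9 are among the 17177 genes tested. RNA-seq was done on primary costal (rib) chondrocytes of 7-d-old mice, released from cartilage with collagenase, in 4 wild-type and 4 *Mir140*-null libraries. Both groups are labelled C57BL/6J. The null allele was made with CRISPR/Cas9 and a pair of guides in zygotes of mixed C57BL/6 and CBA/ca background, the founders were backcrossed onto C57BL/6J, and wild-type and null lines were both derived from heterozygous mice. The deletion is in the germline, so it is not limited to cartilage, and it removes both arms of miR-140. The sources used here do not say whether the cells of a library came from 1 mouse or from several, so p-values measure the spread between these libraries. The comparison asks how the transcriptome of cartilage cells differs when miR-140 is missing.

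During endochondral growth, chondrocytes stop dividing, enlarge and switch on a hypertrophic program that ends in replacement of cartilage by bone. RUNX2 and RUNX3 bind DNA as heterodimers with CBFB and drive this switch, and MEF2C acts beside them. Class IIa histone deacetylases bind MEF2 and RUNX proteins in the nucleus and hold them inactive, until kinases phosphorylate the deacetylases and they are carried out of the nucleus.

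The locus missing from the null mice encodes miR-140-3p, which occurs in cartilage with 2 starts, 1 base apart. Both are shown 5′ to 3′ because the start sets the seed, the stretch that pairs with a target (bases 2 to 8, in capitals). Sequence and position (chr8:107551288-107551308, GRCm38.p6, plus strand) are from RefSeq.
miR-140-3p with the annotated start: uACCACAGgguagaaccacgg
miR-140-3p with the start 1 base later: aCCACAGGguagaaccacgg
The 7-base matches to these seeds, CTGTGGT and CCTGTGG, were searched in the longest 3′UTR of each member in GENCODE M21. A match was found in 6 of the 9 members (66.7%) and in 3924 of the 12981 tested genes that have a 3′UTR (30.2%). The 3′UTRs of the members were 1033 to 4449 bases long, against a median of 1157 bases for the tested genes, and longer 3′UTRs hold more words of any kind. *Runx1*, *Cbfb* and *Hdac5* hold neither match. The matches in the other 6 members are given with their surroundings, the match in capitals, with mm10 coordinates of the stretch shown.
*Runx2*, annotated start, chr17:44606524-44606552, minus strand: agaaaagtgttCTGTGGTctctgagttga
*Runx2*, later start, chr17:44606233-44606261, minus strand: agacaacagaaCCTGTGGggacctccagg
*Runx3*, later start, chr4:135176880-135176908, plus strand: ctccaggaggcCCTGTGGagtctctggtg
*Mef2a*, annotated start, chr7:67232595-67232623, minus strand: tgctctcctctCTGTGGTctcaacactcg
*Mef2c*, later start, chr13:83665935-83665963, plus strand: aagccatgcagCCTGTGGactgtgcgcat
*Mef2d*, later start, chr3:88171642-88171670, plus strand: tctctggaaccCCTGTGGgggaatgtagg
*Hdac7*, annotated start, chr15:97793420-97793448, minus strand: cacacccctagCTGTGGTctccatccctc
In *Runx3* and *Mef2c* the match is followed by an a, which makes it an 8-base site. A match is a description of letters, not evidence of binding. Matches to the seed of miR-140-5p, the other arm removed by the deletion, were not searched here. Among the TargetScan predictions used in the study, made on human genes, *HDAC7* is listed for miR-140-5p, *MEF2C* for the later start of miR-140-3p, and *HDAC4* for miR-140-5p and the annotated start of miR-140-3p.

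*Mir140* itself reached 8.86 TPM in 1 library, which is labelled *Mir140*-null replicate 2, and was listed at 0 in the other 7, wild-type included. The TPM of this gene therefore give no check of the genotypes, and directions are stated for libraries as labelled. The study typed its mice by PCR of ear tissue and measured both arms of miR-140 by qRT-PCR in rib chondrocyte RNA, which included several of the samples sequenced; those measurements were not analysed here. *Wwp2*, the gene that hosts *Mir140*, was at 380 ± 55.8 TPM (SD, n = 4) in the wild-type group and 340 ± 56.5 TPM in the null group. The cartilage label fits the markers: all 11 chondrocyte markers passed the filter, and their summed level was 60140 to 75340 TPM in wild-type and 44530 to 60820 TPM in null libraries, with *Acan* higher and 3 collagen or link protein genes lower in the null libraries. The libraries labelled *Mir140*-null replicates 1 and 2 stood apart from the other 6, with 15800 and 16056 genes at 0.5 TPM or more against 16991 to 17950. In these 2 libraries the summed fibroblast and perichondrium markers were at 194 and 196 TPM against 1271 to 2799 TPM in the other 6 libraries. *Col3a1* (100 and 104 TPM) and *Postn* (58.9 and 54.5 TPM) made up most of that sum. *Pdgfra* of the same list went the other way, at 31.5 to 36.5 TPM in null and 11.8 to 19.8 TPM in wild-type libraries (limma adjusted p = 0.00846). The summed osteoblast markers, mostly *Col1a1*, were at 53.3 and 54.7 TPM in the same 2 libraries against 810 to 1567 TPM. The libraries labelled null replicates 1 and 2 were also lowest for the summed macrophage and osteoclast markers (45.0 and 45.3 TPM against 65.4 to 94.1), endothelial markers (4.02 and 5.38 against 6.22 to 29.98) and erythroid markers (425 and 251 against 635 to 1823). Neutrophil markers summed to 2.04 to 5.82 TPM in wild-type and 6.82 to 9.24 TPM in null libraries, skeletal muscle markers to 61.2 to 96.4 and 33.5 to 57.3 TPM, and the 5 lymphoid markers were each under 1 TPM throughout. Of the neutrophil genes only *Camp* was called (limma adjusted p = 0.0238), and *S100a8*, *S100a9* and *Ngp* overlapped between genotypes. *Mpo* went the other way, at 0.0756 to 0.428 TPM in wild-type and 0.0394 to 0.0683 TPM in null libraries. Mitochondrial transcripts made up 4.06% to 6.99% of TPM in wild-type and 8.41% to 10.1% in null libraries. The results below are therefore given also without the libraries labelled *Mir140*-null replicates 1 and 2, a choice made after the data were seen. Fits without null replicates 3 and 4 keep only the null libraries that stood apart, and were likewise added after the data were seen. Adjusted p-values of both kinds of fit are shaped by that choice and are given as description only.

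**Figure D1:**
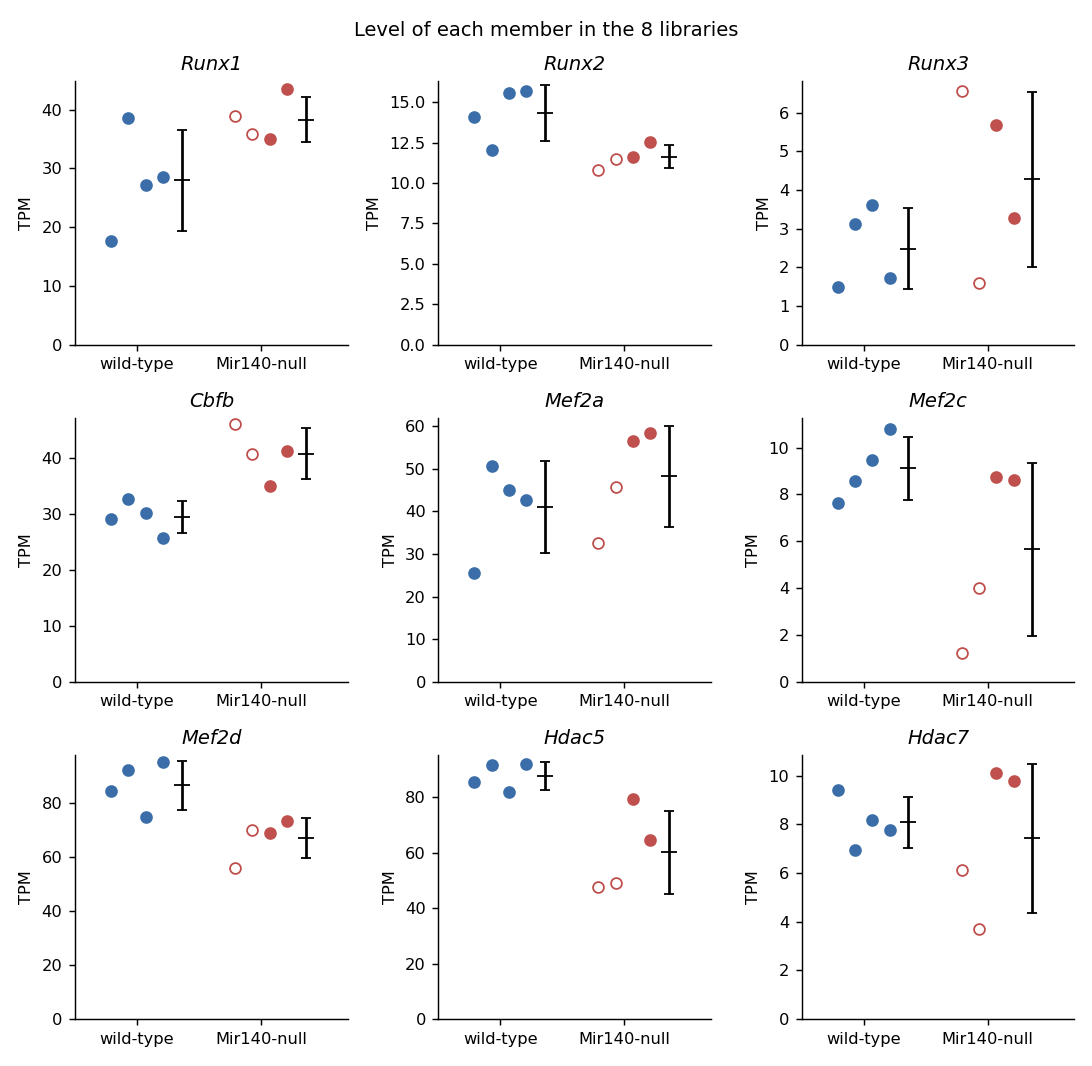
Level of each of the 9 members in TPM (linear axis from 0), 1 point per library, with wild-type in blue and *Mir140*-null in red; open points are the libraries labelled *Mir140*-null replicates 1 and 2, and bars are the mean ± SD of 4 libraries. The genotypes do not overlap for *Cbfb*, *Mef2d* and *Hdac5*, and the open points of *Mef2c* lie below every other library.

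Of the 9 members, *Cbfb* alone passed the genotype test (limma on log2(TPM + 1), adjusted p under 0.05 over all tested genes), and it was higher in the libraries labelled *Mir140*-null. Among all tested genes 10.5% were called higher and 6.40% lower, 16.9% together, so 1 call in 9 members (11.1%) is not above the background. No member was called lower by limma, while 3 members (*Runx2*, *Mef2d* and *Hdac5*) were lower at an unadjusted p under 0.05. The share of all tested genes at that unadjusted level was not computed. Counts at that level, here and below, therefore have no background to be read against. Quantile normalization before limma called 2 members lower, *Mef2d* and *Hdac5*, among 1120 genes called lower in all. It did not call *Cbfb* (adjusted p = 0.147). Over the 9 alternative analyses of all 8 libraries, *Cbfb* was called in 5, *Hdac5* in 4, *Mef2d* in 1 and *Mef2c* in 1. The median log2 difference of the members was -0.18, against -0.01 for all tested genes. In bulk RNA, fewer cells of a type and less RNA per cell cannot be told apart.

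*Runx1* (ENSMUSG00000022952, chr16:92601466-92826149), expressed in progenitors and early chondrocytes, was the most abundant RUNX gene in every library. It was at 17.6, 38.6, 27.1 and 28.5 TPM in wild-type replicates 1 to 4 and, in the same order of replicates, at 38.8, 35.8, 35.0 and 43.5 TPM in the null libraries. Values of other genes follow the same order. Wild-type replicate 2 lay inside the null range and the other 3 wild-type libraries lay below it. The log2 difference, null minus wild-type on the log2(TPM + 1) scale, was 0.49 with SE 0.22 and a 95% interval of -0.0072 to 0.98, which did not pass the test (limma adjusted p = 0.153).

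*Runx2* (ENSMUSG00000039153, chr17:44495987-44814797), the main driver of hypertrophy and of the osteoblast lineage, varied little within each genotype. It was at 14.1, 12.0, 15.6 and 15.7 TPM in wild-type and at 10.8, 11.5, 11.6 and 12.5 TPM in null libraries. The groups overlapped only through wild-type replicate 2, which lay inside the null range. The log2 difference was -0.28 with SE 0.12 and an interval of -0.55 to -0.0023, and it did not pass the test over all genes (limma adjusted p = 0.145). It was -0.22 without the libraries labelled null replicates 1 and 2 and -0.33 without replicates 3 and 4, so both pairs of null libraries lay on the same side. *Runx2* also has antisense transcripts, of which *Runx2os1* was at 0.762 to 2.34 TPM. The library kit marks strand, and whether the quantification used it is not given in the sources used here.

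*Runx3* (ENSMUSG00000070691, chr4:135120652-135177990), which acts redundantly with *Runx2* in hypertrophy, had the lowest mean of the members in each group. It was at 1.49, 3.12, 3.61 and 1.73 TPM in wild-type and at 6.57, 1.60, 5.68 and 3.27 TPM in null libraries. The null libraries ranged more widely than the wild-type libraries and covered most of their range, and the log2 difference of 0.53 (SE 0.37, interval -0.31 to 1.37) did not pass the test (limma adjusted p = 0.34).

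The promoters of the 3 RUNX genes share a pair of RUNX binding words. The RUNX word TGTGGT was searched on both strands of the RefSeq promoters (GRCm38.p6, 250 bases before to 50 after each start), and was found in 3 of the 16 member promoters, 1 each of *Runx1*, *Runx2* and *Runx3*, against 16.8% of 32851 promoters. In all 3 the word occurs as a pair on the strand opposite the gene, so that the strand of the gene reads ACCACA on either side of ga. The pair was looked for after the single matches were seen. It is shown in capitals, with positions counted from the first transcribed base as 0.
*Runx1*, chr16:92826025-92826054, minus strand, pair at 28 to 41: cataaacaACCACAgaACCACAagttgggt
*Runx2*, chr17:44814583-44814612, minus strand, pair at 23 to 36: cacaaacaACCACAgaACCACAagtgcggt
*Runx3*, chr4:135120503-135120532, plus strand, pair at -134 to -121: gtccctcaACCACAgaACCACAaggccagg
The pair with any bases in the gap, ACCACANNACCACA, occurred in 7 of the 32851 promoters (0.0213%), including these 3. The word TGTGGT also lies inside the 3′UTR match CTGTGGT of the annotated miR-140-3p start, since TGTGGT is the reverse complement of ACCACA, the first letters of that seed.

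*Cbfb* (ENSMUSG00000031885, chr8:105170674-105217989) encodes the subunit that stabilises RUNX proteins on DNA. It was at 29.1, 32.7, 30.3 and 25.7 TPM in wild-type and at 46.1, 40.8, 35.0 and 41.2 TPM in the libraries labelled *Mir140*-null, so every null library lay above every wild-type library. The means were 29.4 ± 2.89 and 40.8 ± 4.52 TPM (SD, n = 4). The log2 difference was 0.46 (SE 0.12, interval 0.18 to 0.73), with a limma adjusted p of 0.0366. The call held without wild-type replicate 2 (adjusted p = 0.0488) or null replicate 3 (0.0313) and was lost without any of the other 6 libraries, with adjusted p of 0.0691 to 0.0942. Without the libraries labelled null replicates 1 and 2 the difference was 0.36 (adjusted p = 0.169), and without replicates 3 and 4 it was 0.55 (adjusted p = 0.0342). *Cbfb* lies 2.33 Mb from *Mir140* on the same chromosome. Of the 90 tested genes within 3 Mb of *Mir140*, 15.6% were called (12 higher, 2 lower), and their median log2 difference was 0.09. Of the 905 tested genes on chromosome 8, 18.5% were called (102 higher, 65 lower), with a median of -0.03. Of all tested genes 10.5% were called higher and 6.40% lower. Whether the position near *Mir140* bears on *Cbfb* was not tested. Relative to the summed TPM of the 3 RUNX genes, *Cbfb* was at a ratio of 0.561 to 0.876 in wild-type and 0.67 to 0.833 in null libraries, so the ratio overlapped.

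*Mef2a* (ENSMUSG00000030557, chr7:67231163-67372858), a widely expressed MEF2 gene, was at 25.6, 50.7, 45.1 and 42.6 TPM in wild-type and at 32.6, 45.8, 56.5 and 58.4 TPM in null libraries. Wild-type replicate 1 was the lowest of all, and null replicates 3 and 4 were the highest. The log2 difference was 0.24 (SE 0.25, interval -0.34 to 0.82, limma adjusted p = 0.539). It was 0.52 without the libraries labelled null replicates 1 and 2 and -0.04 without replicates 3 and 4.

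*Mef2c* (ENSMUSG00000005583, chr13:83504034-83667080), required for chondrocyte hypertrophy, had the widest spread among null libraries relative to its mean. It was at 7.62, 8.56, 9.49 and 10.8 TPM in wild-type, and at 1.21, 4.01, 8.76 and 8.62 TPM in null libraries. Null replicates 3 and 4 lay within the wild-type range, and the libraries labelled replicates 1 and 2 lay below it. The log2 difference of -0.82 (SE 0.45, interval -1.86 to 0.21) did not pass the test (limma adjusted p = 0.236). It passed in 1 of the 9 alternative analyses of all 8 libraries. That analysis used a factor taken from residuals of the genotype fit (SE 0.21, limma adjusted p = 0.0288). Without the libraries labelled replicates 1 and 2 the difference was -0.05 (adjusted p = 0.872), whereas with those 2 as the only null libraries it was -1.59 (SE 0.34, adjusted p = 0.0232). The 2 libraries low in *Mef2c* are those with the lowest summed fibroblast, osteoblast, macrophage, endothelial and erythroid markers. Not every gene of these lists was lowest in them, *Pdgfra* and *Ctsk* among the exceptions. The part of these markers in the *Mef2c* result was not tested.

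*Mef2d* (ENSMUSG00000001419, chr3:88142372-88172086) was the most abundant MEF2 gene in every library. It was at 84.3, 92.2, 74.7 and 94.9 TPM in wild-type and at 56.0, 69.9, 68.9 and 73.2 TPM in null libraries, without overlap. The log2 difference was -0.37 (SE 0.12, interval -0.64 to -0.087) and did not pass the test (limma adjusted p = 0.0725). It was -0.28 without the libraries labelled null replicates 1 and 2 and -0.46 without replicates 3 and 4.

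Genotypes did not overlap for 3 of the 9 members, *Cbfb* on the higher side and *Mef2d* and *Hdac5* on the lower side. Among all tested genes 25.9% did not overlap, 15.7% being higher and 10.2% lower in null libraries.

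*Hdac5* (ENSMUSG00000008855, chr11:102194432-102230166), a repressor of MEF2 activity, was at 85.5, 91.9, 81.9 and 92.1 TPM in wild-type and at 47.5, 49.2, 79.4 and 64.6 TPM in null libraries. The wild-type libraries lay close together, and every null library lay below them, the libraries labelled replicates 1 and 2 farthest. The means were 87.9 ± 4.99 and 60.2 ± 14.9 TPM (SD, n = 4), a ratio of 0.685. The log2 difference of -0.57 (SE 0.17, interval -0.95 to -0.18) narrowly missed the threshold (limma adjusted p = 0.0519). Without the libraries labelled replicates 1 and 2 it was -0.29 (adjusted p = 0.201), and with only those 2 null libraries it was -0.85 (SE 0.10, adjusted p = 0.00696). It was past the threshold in 4 of 9 alternative analyses and in 1 of the 8 fits that left out a library, that without null replicate 3 (adjusted p = 0.0203). One of the 4 used a factor taken from residuals of the genotype fit. That setting cannot change the difference, and the SE fell to 0.094. Over all genes it called 4476, against 2897 in the main fit.

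*Hdac7* (ENSMUSG00000022475, chr15:97792664-97844502), a second class IIa deacetylase with a role in chondrocytes and endothelium, was at 9.41, 6.94, 8.16 and 7.78 TPM in wild-type and at 6.10, 3.69, 10.1 and 9.78 TPM in null libraries. Null replicates 3 and 4 were the highest of all libraries, and the libraries labelled replicates 1 and 2 were the lowest. The log2 difference was -0.18 (SE 0.28, interval -0.82 to 0.45, limma adjusted p = 0.673). It was 0.28 without the libraries labelled replicates 1 and 2, and -0.65 without replicates 3 and 4, so its direction depended on which null libraries were used.

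**Figure D2:**
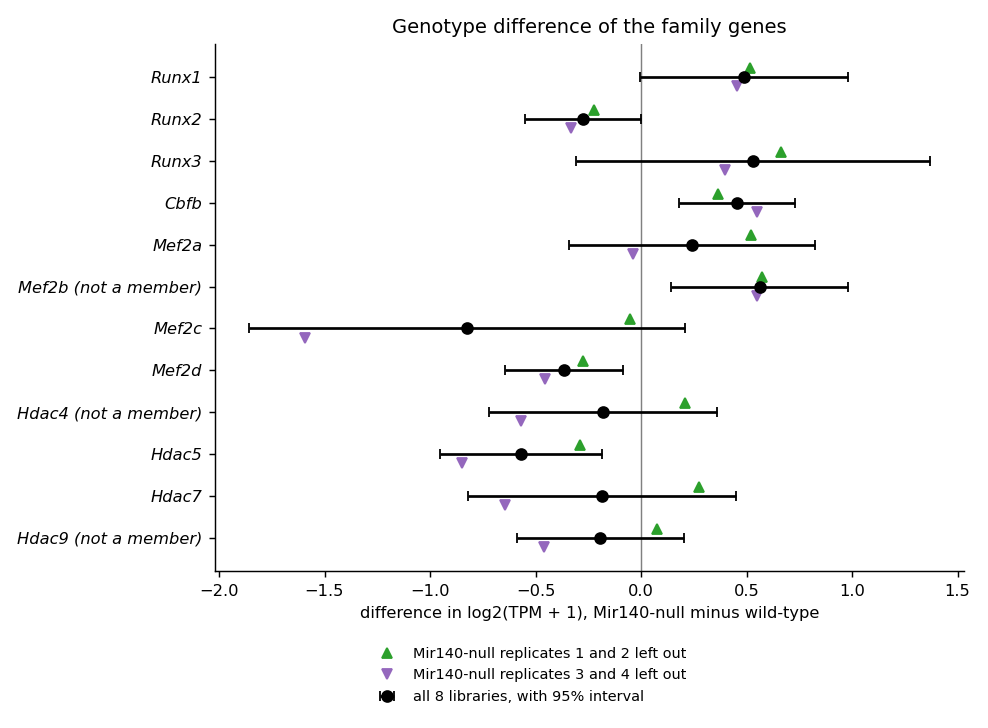
Difference in log2(TPM + 1), *Mir140*-null minus wild-type, for the members and the other genes of the MEF2 and class IIa families. Black points with bars are the estimate over 8 libraries and its 95% interval; green triangles leave out null replicates 1 and 2 and purple triangles leave out null replicates 3 and 4. The triangles lie far apart for *Mef2c*, *Hdac7*, *Hdac4*, *Mef2a* and *Hdac5*, on opposite sides of 0 for *Hdac7*, *Hdac4*, *Hdac9* and *Mef2a*, and close together for *Runx1* and *Runx2*.

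The remaining genes of these families were set beside the members. *Hdac4*, the deacetylase best known for restraining hypertrophy, was at 10.7, 15.9, 14.1 and 11.7 TPM in wild-type and at 8.29, 8.54, 14.3 and 16.0 TPM in null libraries (log2 difference -0.18, SE 0.24, limma adjusted p = 0.622). Its 3′UTR holds 3 matches to the later miR-140-3p start and none to the annotated start. *Hdac9* was at 1.13 to 1.45 TPM in wild-type and at 0.478, 0.79, 1.51 and 1.21 TPM in null libraries. All 4 class IIa genes, *Hdac4*, *Hdac5*, *Hdac7* and *Hdac9*, were thus lowest in the libraries labelled null replicates 1 and 2. *Mef2b*, which overlaps a neighbouring gene and whose level is uncertain for that reason, was at 0.428 to 1.61 TPM in wild-type and 1.91 to 2.05 TPM in null libraries (log2 difference 0.56, SE 0.18, limma adjusted p = 0.0687).

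Of the 9 members, 4 (*Runx2*, *Mef2c*, *Hdac5* and *Hdac7*) were lower in both libraries labelled null replicates 1 and 2 than in any of the other 6, and the other 5 were not. Among all tested genes 21.1% were lower in both of these libraries and 13.0% were higher. With both libraries left out, 3.30% of genes were called, 2.08% higher and 1.22% lower, and no member was, with *Cbfb* the single member at an unadjusted p under 0.05 in limma. With null replicates 3 and 4 left out instead, 23.9% of genes were called (12.9% lower, the rest higher), and the members called were *Cbfb*, which was higher, and *Mef2c* and *Hdac5*, which were lower.

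TPM are scaled by transcript length, so levels can be compared between genes within a library. In wild-type libraries *Hdac5* (87.9 TPM on average) and *Mef2d* (86.5 TPM) headed the members and their ranges overlapped. *Mef2a* (41.0), *Cbfb* (29.4) and *Runx1* (27.9) followed, each overlapping the next, then *Runx2* (14.3), then *Mef2c* (9.11) and *Hdac7* (8.07), which overlapped, and *Runx3* (2.49) last. There was no overlap between *Mef2d* and *Mef2a*, between *Runx1* and *Runx2*, between *Runx2* and *Mef2c*, or between *Hdac7* and *Runx3*. In null libraries the first 5, now led by *Mef2d* (67.0 TPM), formed a chain in which each range overlapped the next, and *Runx2* (11.6) stood apart from the genes above and below it. *Hdac5* and *Mef2d* exceeded 93.3% and 93.2% of tested genes in wild-type, and *Runx3* exceeded 30.7%.

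The make-up of each family differed between libraries in ways that scaling between libraries cannot change. *Mef2a* made up 21.8% to 34.9% of the summed MEF2 TPM (*Mef2a*, *Mef2c* and *Mef2d*) in wild-type and 36.3% to 42.1% in null libraries, without overlap. *Mef2d* made up 57.8% to 71.8% and 51.4% to 62.4%, and *Mef2c* 5.66% to 7.34% and 1.35% to 6.53%, both overlapping. *Runx2* made up 33.7% to 42.4% of the summed RUNX TPM in 3 wild-type libraries, 22.4% in wild-type replicate 2, and 19.2% to 23.5% in null libraries. *Runx1* made up 53.1% to 71.8% in wild-type and 66.9% to 73.4% in null libraries. *Hdac5* supplied 86.8% to 93.0% of the summed *Hdac5* and *Hdac7* TPM in the 8 libraries, and that sum was 90.1 to 99.9 TPM in wild-type and 53.6, 52.9, 89.5 and 74.4 TPM in null libraries. No test was made on these fractions.

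**Figure D3:**
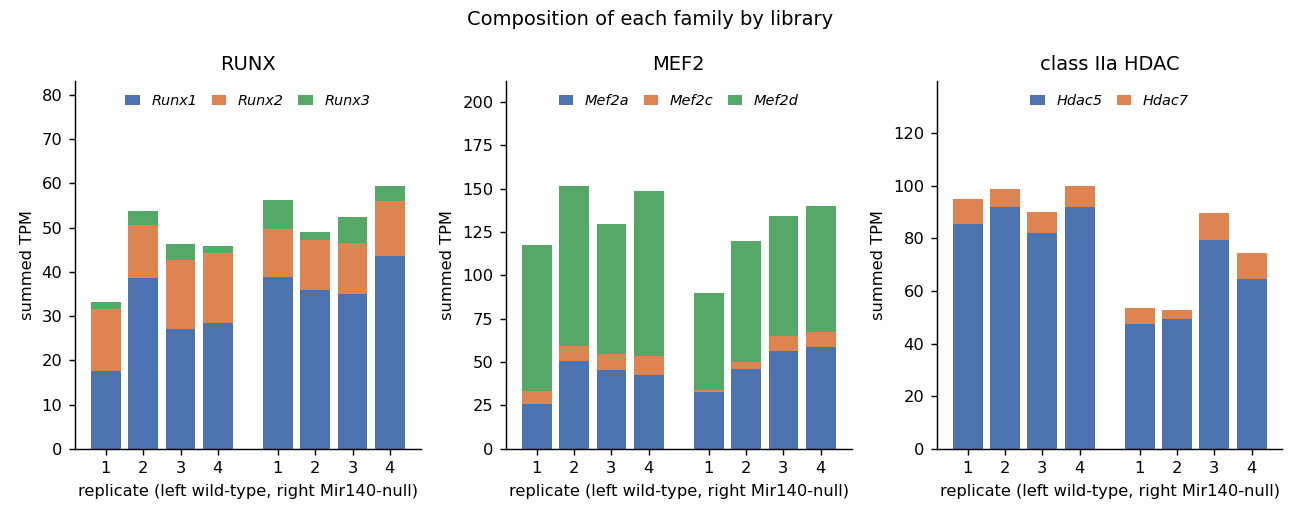
Summed TPM of the members of each family by library (stacked bars from 0), with wild-type replicates 1 to 4 on the left and *Mir140*-null replicates 1 to 4 on the right of each panel. *Mef2b*, *Hdac4* and *Hdac9* are not members and are left out of the sums. *Runx1*, *Mef2d* and *Hdac5* take the largest part of their sum in every library, and the sum of *Hdac5* and *Hdac7* is lowest in null replicates 1 and 2.

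A MEF2 word, CTANNNNTAG, was found in the promoters of *Mef2a* and *Hdac5*, 2 of the 16 member promoters, against 3.69% of 32851 promoters. Both are shown, the word in capitals, because MEF2 proteins bind such words and class IIa deacetylases bind MEF2 proteins.
*Mef2a*, chr7:67372841-67372870, minus strand, word at -2 to 7: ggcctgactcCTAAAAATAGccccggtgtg
*Hdac5*, chr11:102230173-102230202, minus strand, word at -20 to -11: gggtctgagcCTATTTTTAGctcggggtcg
The log2 differences of these genes had opposite signs, 0.24 for *Mef2a* and -0.57 for *Hdac5*, and neither was called.

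Genes that act on the members were examined as lists. Of 20 RUNX partners and modulators, 17 were tested, 4 rose in the libraries labelled *Mir140*-null and none was called lower by limma, nor lower at an unadjusted p under 0.05 (0). The median log2 difference was 0.18. *Tle3*, a Groucho corepressor that binds RUNX proteins, rose from 17.2, 30.2, 20.7 and 19.5 TPM in wild-type to 31.8, 41.1, 50.7 and 55.8 TPM (SE of the log2 difference 0.22, limma adjusted p = 0.0231). It remained called without the libraries labelled null replicates 1 and 2 (1.27, adjusted p = 0.046) but not without null replicates 3 and 4 (0.73, adjusted p = 0.0766). *Tle4*, of the same family, *Twist2*, whose product restrains RUNX2, and *Hivep3*, an adaptor for RUNX2 degradation, rose by log2 differences of 0.53, 0.54 and 0.81 (limma adjusted p = 0.0285, 0.0344 and 0.047). None of these 3 was called without the libraries labelled null replicates 1 and 2.

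Of 27 kinases and partners of class IIa deacetylases, all tested, 4 rose and none was called lower by limma (1 at an unadjusted p under 0.05), with a median log2 difference of 0.17. *Mark3* and *Mark2*, kinases that phosphorylate these deacetylases, rose by 0.52 (limma adjusted p = 0.0179) and 0.41 (0.0305). *Mark3* was at 52.1 to 66.4 TPM in wild-type and 77.8 to 89.3 TPM in null libraries. *Ywhag* and *Ywhab*, adaptors that bind the phosphorylated deacetylases, rose by 0.66 (limma adjusted p = 0.0342) and 0.42 (0.0358). *Xpo1*, the export receptor for these proteins, named after its values were seen, was at 62.4, 53.2, 54.5 and 53.4 TPM in wild-type and 27.2, 27.4, 50.2 and 52.3 TPM in null libraries, again lowest in the libraries labelled replicates 1 and 2 (limma adjusted p = 0.134).

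Of 15 MEF2 activators and coactivators, 14 were tested, 2 rose and none was called lower by limma (1 at an unadjusted p under 0.05), with a median log2 difference of 0.34. *Ppp3cb*, a catalytic subunit of calcineurin, was at 17.2, 15.2, 18.7 and 15.8 TPM in wild-type and 28.2, 24.4, 21.8 and 24.1 TPM in null libraries (log2 difference 0.53, limma adjusted p = 0.0228). *Map2k3*, a kinase upstream of p38, rose by 0.46 (limma adjusted p = 0.0399). These counts, 4 of 17, 4 of 27 and 2 of 14, stand beside the 10.5% of all tested genes called higher. Without the libraries labelled null replicates 1 and 2, *Tle3* alone of these 3 lists was called. Each of the 10 calls was lost in at least 3 of the 8 fits that left out a library; without wild-type replicate 4 or without the library labelled null replicate 2, 0 of them were called.

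Of 11 targets of RUNX and MEF2 proteins at hypertrophy, 10 were tested and 1 fell, with a median log2 difference of -0.28, beside 6.40% called lower and a median of -0.01 over all tested genes. *Sp7*, *Ibsp*, *Alpl* and *Bglap* of this list are also among the 7 osteoblast markers whose sum, mostly *Col1a1*, was lowest in the libraries labelled null replicates 1 and 2. *Sp7*, *Ibsp* and *Alpl* were each lower in both of these than in any other library. *Bglap* was not, at 1.35 TPM in wild-type replicate 4 and at 1.82 and 1.30 TPM in these 2 libraries. *Alpl*, a phosphatase of mineralising cells, and *Bglap*, which encodes osteocalcin, had log2 differences of -1.01 and -0.23, and of -0.29 and 0.63 without these 2 libraries; neither was called. *Panx3*, a channel gene of prehypertrophic chondrocytes, fell from 7.03, 11.4, 6.50 and 7.41 TPM in wild-type to 3.09, 3.44, 5.22 and 2.34 TPM in the libraries labelled *Mir140*-null (log2 difference -1.01, SE 0.23, limma adjusted p = 0.0255). Without the libraries labelled replicates 1 and 2 the difference was -0.97 (adjusted p = 0.136). *Panx3* was called in 4 of the 8 fits that left out a library, with limma adjusted p of 0.0191 to 0.0633 over them. *Col10a1*, the defining collagen of hypertrophic cartilage, was at 25.2, 167, 61.8 and 85.9 TPM in wild-type and 66.2, 45.5, 39.5 and 46.2 TPM in null libraries, and the wild-type spread exceeded the difference (limma adjusted p = 0.512). *Mmp13*, the collagenase of late hypertrophy, was at 15.8, 15.5, 19.5 and 21.0 TPM in wild-type and 20.8, 21.1, 35.2 and 34.9 TPM in null libraries. Its log2 difference was 0.58 (limma adjusted p = 0.0967) and, without the libraries labelled replicates 1 and 2, 0.94 (adjusted p = 0.0428). Without null replicates 3 and 4 the difference of *Mmp13* was 0.22 (limma adjusted p = 0.344). *Sp7*, an osteoblast factor, and *Ihh*, the signal of prehypertrophic cells, were low in every library, at 0.643 to 2.17 TPM and 0.158 to 1.10 TPM, and neither was called (limma adjusted p = 0.284 and 0.338).

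**Figure D4:**
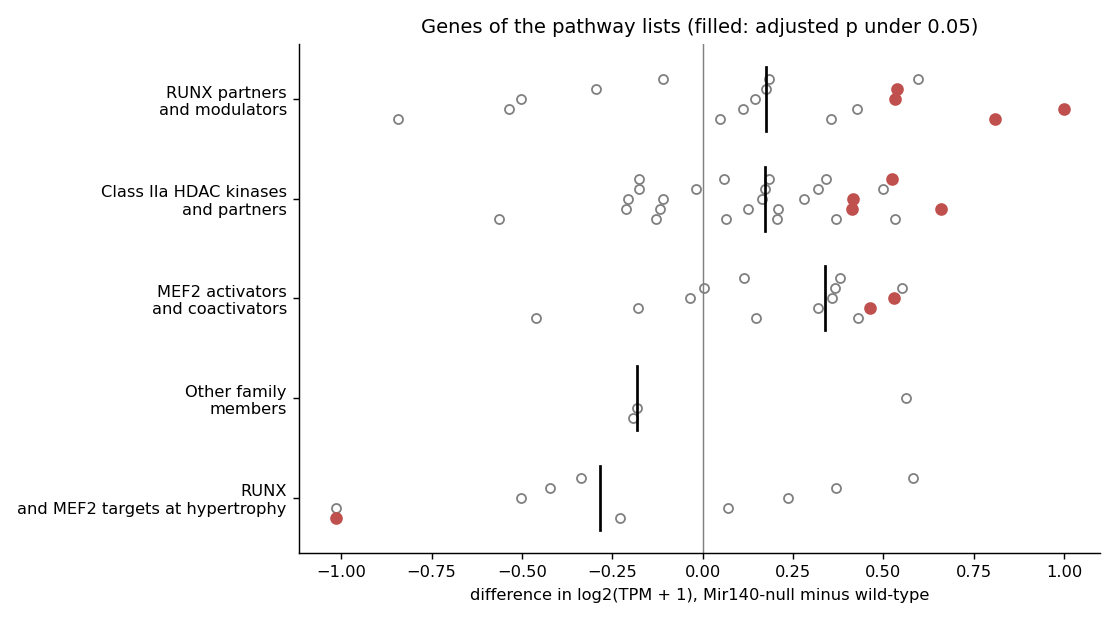
Difference in log2(TPM + 1), *Mir140*-null minus wild-type, for each tested gene of the 5 lists (1 point per gene, filled red where the limma adjusted p is under 0.05); the black line is the median of the list. The 10 filled points on the right are in the first 3 lists and the single filled point on the left is *Panx3*.

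The genes whose levels followed *Runx2* most closely over the 8 libraries were found among 9468 genes with a mean of at least 5 TPM. They were *Gtf3c1*, *Fam92a* and *Ppp2r5d*, with root mean square differences of 0.0465, 0.0703 and 0.0755 on the centred log2(TPM + 1) scale. *Gtf3c1* was at 9.18 to 11.4 TPM in wild-type and 8.63 to 9.16 TPM in null libraries.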

How the data were processed

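RNA of costal chondrocytes from 4 wild-type and 4 *Mir140*-null libraries was analysed, grouped by the genotype in the labels. The authors sequenced stranded poly(A) libraries (single-end, 75 bp), checked reads with FastQC 0.11.7, quantified transcripts with Salmon against mm10 and deposited TPM per Ensembl gene. TPM sum to 1000000 in each library and hold no read counts. Per the labels each sample gave over 12000000 reads; the depth behind each TPM value is unknown and no counting interval was computed. The count-based normalization named in the methods could not be applied to TPM.

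Genes at 0.5 TPM or more in at least 4 of 8 libraries entered a linear model (limma 3.58.1, R 4.3.3) of log2(TPM + 1), pseudocount 1, with a mean-variance trend and genotype as the only term. P-values were two-sided, adjusted by the Benjamini-Hochberg method over all genes tested, and called under 0.05. The procedure was tested on simulated data. Sequences were read from RefSeq tables and GENCODE M21. Python 3.11.15, NumPy 2.4.6, SciPy 1.17.1, pandas 2.3.3 and matplotlib 3.10.9 were used.

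The members and the lists (5 of pathway genes, 9 of cell type markers) were chosen with earlier results of these data known. Named were the members, the called list genes (at most 4 per list and direction), *Hdac4*, *Hdac9*, *Mef2b*, *Sp7*, *Col10a1*, *Mmp13*, *Ihh*, the 3 genes nearest *Runx2*, *Wwp2* and *Mir140*. Marker genes, antisense genes, *Alpl*, *Bglap*, *Ibsp* and *Xpo1* were named after their values were seen. Alternatives were a pseudocount of 0.1, no filter, a mean of at least 5 TPM, median-ratio scaling, quantile normalization, rescaling without mitochondrial genes, replicate number as a block, 1 factor of unwanted variation from residuals, sample quality weights and leaving out libraries. Fits that left out a pair of null libraries were added after the data were seen.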

Additional observations from a re-analysis of the deposited data

Results flagged for a closer look

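Of 92 groups of 4 libraries examined, 2 held a library far from the other 3, while chance alone flags about 1 in 20 groups. *Mir140*, the deleted gene, reached 8.86 TPM in 1 library, labelled *Mir140*-null replicate 2, and was listed at 0 in the other 7. *Xpo1*, the nuclear export receptor of class IIa deacetylases, was at 62.4 TPM in wild-type replicate 1, against 54.5 TPM in the nearest wild-type library.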

How the results depend on the processing

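Of the 9 members, 1 was called higher and 0 lower in *Mir140*-null libraries, among 1797 and 1100 genes in all and 10 and 1 genes of the pathway lists. No member was called higher (0) without a filter, with median-ratio scaling, with quantile normalization or without null replicates 1 and 2. Members called lower numbered 1 with the filter on mean TPM or median-ratio scaling, and 2 with quantile normalization, with 1 factor of unwanted variation or without null replicates 3 and 4. Fits without 1 library each called 0 to 1 members in either direction, 779 to 1553 genes higher and 419 to 1214 lower, and 0 to 7 list genes higher and 0 to 3 lower. Genes called higher numbered 977 without a filter and 357 without null replicates 1 and 2. Genes called lower numbered 539 without a filter, 605 with the filter on mean TPM, 2016 with 1 factor, 210 without null replicates 1 and 2, and 2212 without null replicates 3 and 4. List genes called higher numbered 3 without a filter, 4 with quantile normalization, 17 with 1 factor and 2 without null replicates 1 and 2; those called lower numbered 0, 1, 6 and 0, and 7 without null replicates 3 and 4. Median-ratio scaling called 1368 genes higher and 1320 lower, and rescaling without mitochondrial genes 2176 and 937. The cause of these shifts was not tested. The log2 difference of *Mef2a* reversed to -0.04 without null replicates 3 and 4, and that of *Hdac7* to 0.28 without null replicates 1 and 2; with 1 library left out, that of *Hdac7* lay between -0.345 and 0.069, the latter without the library labelled null replicate 2. *Cbfb* lost its call in 11 of 19 alternatives, with adjusted p (limma) from 0.0214 to 0.169 over all of them.

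Same-numbered wild-type and null libraries did not deviate together (correlations across genes of -0.01 to 0.07), so the numbers are not taken to pair samples. With the replicate number as a block, 671 genes were called higher and 454 lower, with 0 members and 0 list genes in either direction, and the limma adjusted p of *Cbfb* was 0.0866. With no read counts, low genes such as *Runx3* carry an unknown counting error.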
